A study of Mus musculus with 15 samples.

Results

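Ifi47, Herc6, Gvin1 and Gm1966 are 3 loci of interferon-inducible GTPases and 1 interferon-inducible ligase of the HECT type, and they are 4 members of a table of mouse liver RNA-seq values that holds 1711 genes with a higher and 1800 with a lower mean in CCl4 than in oil. They were chosen by symbol, with their values in these libraries already known, and every gene of the table had itself been selected on the authors' comparison of CCl4 with oil. Differences between CCl4 and oil, and between CCl4 + EVNorm and CCl4, are therefore given for these 4 genes as a description with no test. EVNorm are extracellular vesicles from AML12 cells, a non-tumorigenic mouse hepatocyte line, collected under serum-free conditions. The mice were male Swiss Webster mice, an outbred stock, and were 4 to 5 weeks old when the injections began. Untreated mice received no injection. Oil mice received 30 μl corn oil per 25 g body weight i.p. 3 times a week for 5 weeks, and CCl4 mice received 4 μl CCl4 in 26 μl corn oil per 25 g at the same times. Oil + EVNorm and CCl4 + EVNorm mice also received 80 μg EVNorm per 25 g i.p. 3 times a week, on the days between, over the last 2 weeks. Injected mice were killed 36 h after the last CCl4 or oil injection. Each of the 5 groups had 3 libraries, which the study describes as separate animals. No group received vesicles from another cell type, so the effect of hepatocyte vesicles cannot be told apart from that of any vesicle preparation.

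Interferons signal through receptors and JAK-STAT proteins to switch on a shared set of target genes. Among these targets are several families of GTPases. The immunity-related GTPases, to which Ifi47 belongs, act in mouse cells on membranes around intracellular microbes, the guanylate-binding proteins act with them, and the very large inducible GTPases, of which Gvin1 is the type member, are giant proteins of less certain function. Interferon also induces ISG15, a ubiquitin-like protein that is attached to other proteins, and in mouse Herc6 is the main ligase for that attachment. In liver these genes can be expressed by hepatocytes as well as by immune and endothelial cells, so that in whole tissue fewer cells of a type and less RNA per cell cannot be told apart.

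On GRCm38, Ifi47 (ENSMUSG00000078920) lies on chromosome 11 from 49076587 to 49096974 on the plus strand. Herc6 (ENSMUSG00000029798) lies on chromosome 6 from 57581000 to 57664632, also on the plus strand. Gvin1 (ENSMUSG00000045868) and Gm1966 (ENSMUSG00000073902) lie on the minus strand of chromosome 7, at 106156556 to 106215326 and at 106596743 to 106604035. GENCODE annotates the first 3 as protein coding and Gm1966 as an unprocessed pseudogene, a gene copy without an annotated product. Of the exonic bases of Ifi47, 4.49% are shared with the same-strand gene Olfr56, and of those of Herc6 13.7% with the transcript Gm45193. Neither overlapping gene was in the table, and reads from such shared bases cannot be assigned with certainty.

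The windows around the annotated start sites of Ifi47 and Herc6 are shown because these are the members that both lay lower in CCl4 than in every other group. They were searched for 2 elements through which interferon acts. One is the core of the interferon-stimulated response element (ISRE), spelled GAAANNGAAA. The other is the gamma-activated site (GAS), spelled TTCNNNGAA. Both were searched on both strands, and they do not overlap in spelling. The windows run 5′ to 3′ from 250 bases before to 50 bases after the start (RefSeq, GRCm38.p6), at chr11:49076337-49076636 for Ifi47 and chr6:57580742-57581041 for Herc6, both on the plus strand. Igtp, another immunity-related GTPase of the table, is printed beside them as a gene whose window (chr11:58199306-58199605, plus strand) holds both elements, in capitals.
Ifi47: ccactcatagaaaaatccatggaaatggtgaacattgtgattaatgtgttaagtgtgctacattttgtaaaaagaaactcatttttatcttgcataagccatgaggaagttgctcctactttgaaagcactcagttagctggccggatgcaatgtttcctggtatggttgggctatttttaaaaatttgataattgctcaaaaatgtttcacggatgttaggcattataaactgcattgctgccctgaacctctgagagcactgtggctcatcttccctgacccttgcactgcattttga
Herc6: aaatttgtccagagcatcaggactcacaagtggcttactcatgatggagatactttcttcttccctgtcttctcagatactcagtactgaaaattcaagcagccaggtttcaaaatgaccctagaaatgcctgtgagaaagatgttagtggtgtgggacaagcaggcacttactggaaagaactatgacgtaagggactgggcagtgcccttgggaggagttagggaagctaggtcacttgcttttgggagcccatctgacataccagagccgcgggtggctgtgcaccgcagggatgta
Igtp: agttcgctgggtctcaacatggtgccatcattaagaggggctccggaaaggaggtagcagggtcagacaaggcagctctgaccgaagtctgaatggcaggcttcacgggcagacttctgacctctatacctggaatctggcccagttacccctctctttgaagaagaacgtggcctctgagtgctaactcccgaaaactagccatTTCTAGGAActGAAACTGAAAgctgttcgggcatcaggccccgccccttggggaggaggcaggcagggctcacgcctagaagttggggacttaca

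Neither spelling occurs in the Ifi47 or the Herc6 window, which says only that these letters are not in these 300 bases. In Igtp the GAS spelling begins 45 bases and the ISRE spelling 34 bases before the start. Of 32851 promoter windows of the same length, 3.44% held the ISRE spelling and 8.30% the GAS spelling. RefSeq windows matched 3 of the 4 members, all but Gvin1, and 6 of the 10 GTPase genes in the table, of which 3 held an ISRE and 2 a GAS spelling. The Gm1966 window (chr7:106644596-106644895, minus strand) held 1 ISRE spelling, but it starts from a RefSeq model that reaches well beyond the counted GENCODE locus.

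Gvin1 and Gm1966 belong to a tandem family. Aligned to all GENCODE transcripts with BLAST, the 7293-base transcript of Gm1966 matched 10 other genes over at least 500 bases, all on chromosome 7, with identities from 86.1% to 93.3%. Gvin1 is 92.9% identical to Gm1966 over 7294 aligned bases and begins 389 kb away. It is the only 1 of the 10 copies in the table. The next stretch, from the coding sequence of Gvin1 (bases 313 to 462 of its transcript) and the matching bases 223 to 372 of Gm1966, is shown because its 10 differences, in capitals, are what lets a read be assigned to 1 locus or the other.
Gvin1: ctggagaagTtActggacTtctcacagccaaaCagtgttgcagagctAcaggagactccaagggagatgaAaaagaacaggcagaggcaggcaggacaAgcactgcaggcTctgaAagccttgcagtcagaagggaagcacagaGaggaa
Gm1966: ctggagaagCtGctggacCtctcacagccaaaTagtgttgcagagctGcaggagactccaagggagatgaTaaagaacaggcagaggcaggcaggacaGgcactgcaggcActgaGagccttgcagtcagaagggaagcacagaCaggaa

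The 2 loci differ in how far their reads can be assigned. Reads were 150 bases long, and none of the 7144 windows of 150 bases in the Gm1966 transcript occurred exactly in another copy. In contrast, 8516 of the 8856 windows of the longest Gvin1 transcript (96.2%) did. Most of these were shared with Gm4070, a neighbouring coding gene 99.97% identical to Gvin1 over 9005 bases and not in the table, which alone matched 8406 windows (94.9%). The Gvin1 stretch printed above also occurs in 1 other gene, whereas the Gm1966 stretch occurs in none. Values of Gvin1 are therefore uncertain, since they may include or lack reads of Gm4070. How reads with several equal placements were counted is not given in the sources used here.

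Across the table the 15 libraries held 6106856 to 11055679 recovered reads. Oil replicates 2 and 3 were closer to each other than any other pair of replicates, with a median chi-square per gene of 0.816 against 2.43 to 11.4 in the other 14 pairs and 0.455 from sampling noise. They were counted as 2 samples, and results that use oil are also given with their mean taken as 1. Untreated replicate 2 was low in Ifi47 and high in Gvin1 and Gm1966, and changes to calls without it are given beside the results that use untreated mice. Of 58 marker genes in 9 cell type lists 11 were in the table, including Apoa1 and Cyp2e1 of hepatocytes at the highest levels, with none for dendritic cells or neutrophils.

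Ifi47 was lowest in CCl4. The normalised read count was 1930.1, 882.6 and 1907.5 in the 3 untreated libraries, 1082.2, 1222.6 and 1202.1 in oil, and 1373.4, 1242.7 and 917.4 in oil + EVNorm. It was 557.8, 631 and 465.7 in CCl4 and 847.4, 1203.2 and 1042.6 in CCl4 + EVNorm. Every CCl4 library lay under every library of the other 4 groups, while those 4 groups overlapped one another. In order of the mean, CCl4 (551.5 ± 82.8, SD, n = 3) was followed by CCl4 + EVNorm (1031 ± 178), oil (1169 ± 75.8), oil + EVNorm (1178 ± 235) and untreated mice (1573 ± 598), and only the step from CCl4 to CCl4 + EVNorm was wider than the ranges of its neighbours. The mean was 2.12-fold lower in CCl4 than in oil and 1.87-fold higher in CCl4 + EVNorm than in CCl4. The untreated group had the widest spread, with the highest library 2.19 times the lowest, against 1.13 in oil. Untreated replicate 2 alone made that spread.

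Herc6 was also lowest in CCl4, with smaller steps between groups and another order of the other 4. Its normalised read count was 388.8, 431.4 and 369.2 in CCl4 and 515, 612.2 and 567.1 in CCl4 + EVNorm. It was 539.5, 497.8 and 533.3 in oil, 529.4, 603 and 484.9 in oil + EVNorm, and 510.5, 433.6 and 475.8 in untreated mice. The CCl4 libraries again lay under all others, though the highest of them (431.4) was close to the lowest untreated library (433.6). The group means rose from CCl4 (396.5 ± 31.8) through untreated mice (473.3 ± 38.5), oil (523.5 ± 22.5) and oil + EVNorm (539.1 ± 59.6) to CCl4 + EVNorm (564.8 ± 48.6), and the latter 4 groups overlapped their neighbours. The mean was 1.32-fold lower in CCl4 than in oil and 1.42-fold higher in CCl4 + EVNorm than in CCl4. Within any group the highest Herc6 library was at most 1.24 times the lowest.

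**Figure D1:**
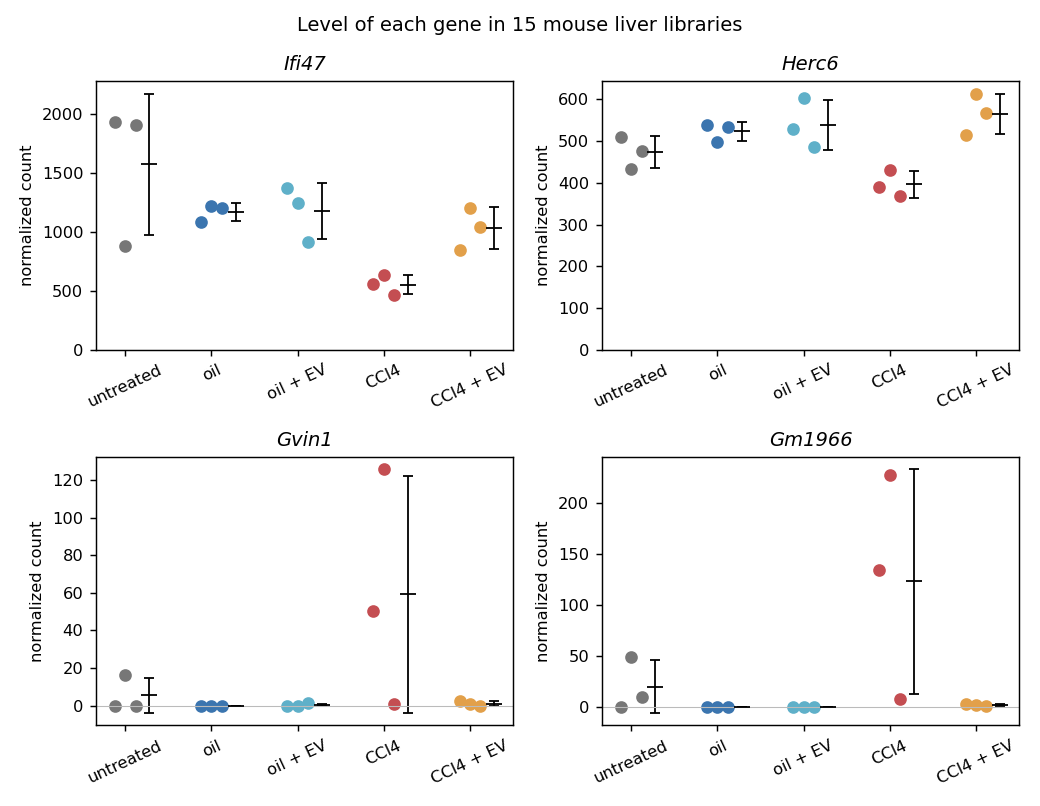
Normalised read count (vertical axes, linear, a separate scale for each gene) of Ifi47, Herc6, Gvin1 and Gm1966 in the 5 groups. Each point is 1 library in replicate order and the bars are mean ± SD of 3 libraries; for Ifi47 and Herc6 the CCl4 points (465.7 to 631 and 369.2 to 431.4) lie under all others, and for Gvin1 and Gm1966 the high points are 2 CCl4 libraries, with untreated replicate 2 next.

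These differences stand beside a table whose genes were picked for CCl4 against oil. In that comparison the groups did not overlap for 98.3% of the genes, so that the absence of overlap for all 4 members says nothing about them. The median gene of the table was lower in CCl4 than in oil by 0.32 on the log2 scale. On the log2(normalised count + 1) scale the difference was -1.09 for Ifi47 and -0.40 for Herc6. Since 48.7% of this selected table lay above 0, its median fell among the smallest decreases and does not show how a typical gene moved. Herc6, close to that median, was thus among the smaller decreases of the table. After quantile normalisation, which moved the table median to 0.03, the differences were -0.84 for Ifi47 and -0.29 for Herc6. Between CCl4 + EVNorm and CCl4 the groups did not overlap for 28% of the table, and Ifi47, Herc6 and Gm1966 were among these genes. In this comparison the log2 difference was 0.90 for Ifi47 and 0.51 for Herc6, beside a table median of -0.06. Marker levels of other cells also differed between the groups: Lyz2 and Ccr2, 2 of the 11 macrophage markers, summed to 3487.5 to 4078.7 in CCl4, 1454.9 to 1646.5 in oil and 1411.7 to 2067 in CCl4 + EVNorm. Lyz2 made most of this sum, with means of 3693 in CCl4, 1484 in oil and 1596 in CCl4 + EVNorm. The means of Ccr2 were 184.1, 97.5 and 152.5 in the same order. Apoa1 and Cyp2e1, 2 of the 7 hepatocyte markers, summed to 146757 to 168677 in CCl4, 237544 to 253952 in oil and 148366 to 173218 in CCl4 + EVNorm. Cd4, 1 of the 11 T and NK cell markers, stood at 18.4 to 31.2 in CCl4, 48.6 to 77.2 in oil and 32.1 to 37.8 in CCl4 + EVNorm. Clec4g, 1 of the 5 endothelial markers, was lower in CCl4 (1190.8 to 1236) than in oil (1748.4 to 1880.1) and lower still in CCl4 + EVNorm (982.1 to 1007.8). The part of these cells in the Ifi47 and Herc6 values was not tested.

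Gm1966 was read in 2 of 3 untreated libraries and in all CCl4 libraries, and hardly elsewhere. Its normalised read count was 133.9, 227.2 and 7.8 in CCl4 and 0, 49 and 10.1 in untreated mice. It was 0 in every oil and oil + EVNorm library, and 2.5, 1.6 and 0.8 in CCl4 + EVNorm, which stood for 6 reads in all. CCl4 replicates 1 and 2 were far above CCl4 replicate 3, which lay inside the untreated range. Over the group, 468 reads in CCl4 against 0 in oil put Gm1966 at least 119-fold higher in CCl4, with 3 reads over the group taken as the floor. The same 468 reads were 81.5-fold above the 6 reads of CCl4 + EVNorm after scaling for library size. Without CCl4 replicate 2 the bound was 69.0-fold and the ratio 47.3, and without any 1 oil library, where the same floor falls on fewer libraries, the bound was 77.4-fold to 82.0-fold for Gm1966.

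Gvin1 had the same outline at lower values. Its normalised read count was 50.6, 125.9 and 1 in CCl4, 2.5, 0.8 and 0 in CCl4 + EVNorm, and 0, 16.3 and 0 in untreated mice. It was 0 in all oil libraries and 0, 0 and 1.2 in oil + EVNorm. CCl4 replicate 3, with 1 read, lay within the range of CCl4 + EVNorm, so the CCl4 group overlapped it. The 227 reads in CCl4 were at least 57.7-fold above oil, with the same floor of 3 reads, and 59.3-fold above the 4 reads of CCl4 + EVNorm. CCl4 replicate 2 held 164 of the 227, and without it the bound was 25.3-fold and the ratio 25.996. Without oil replicate 1 or 2 the bound was 37.5-fold or 38.1-fold. CCl4 + EVNorm replicate 1 held 3 of the 4 reads there, and without it the ratio was 160 with an exact counting interval of 28.4 to 6334. In the 2 libraries with most reads, Gvin1 gave 27.4% (95% exact Clopper-Pearson interval 21.7% to 33.7%) of the reads of the pair in CCl4 replicate 1 and 35.7% (31.3% to 40.2%) in CCl4 replicate 2. In untreated replicate 2 it gave 25% (15.3% to 37.0%). Intervals cover counting error only.

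**Figure D2:**
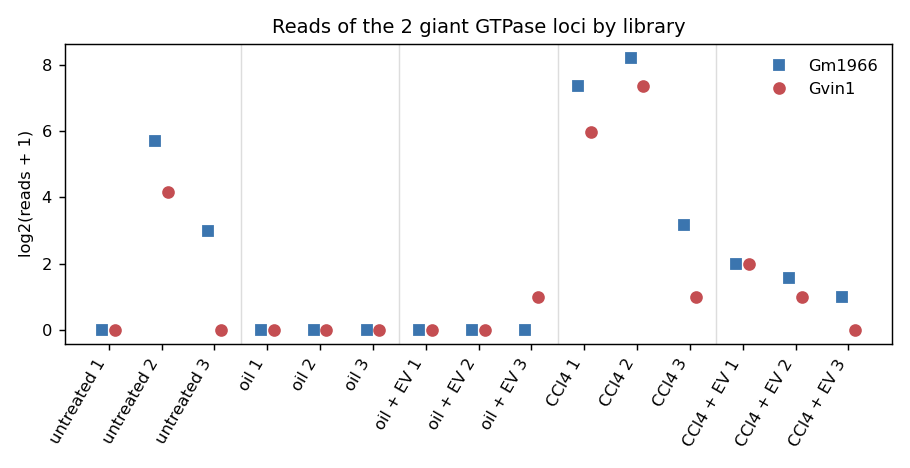
Recovered reads of Gm1966 (squares) and Gvin1 (circles) in each library, as log2(reads + 1) on the vertical axis, with the 15 libraries by group and replicate on the horizontal axis. CCl4 replicates 1 and 2 hold 164 and 296 reads of Gm1966 and untreated replicate 2 holds 51, while all oil and oil + EVNorm libraries hold 0.

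Per kilobase of exon, and on the normalised read count scale, Ifi47 was the most abundant of the 4 in oil, at 473 per kb against 56.3 for Herc6. In CCl4 the levels per kb were 223 for Ifi47, 42.7 for Herc6, 16.9 for Gm1966 and 6.57 for Gvin1, the last of which is uncertain for the reason above. Inside CCl4 the highest Gm1966 library was 29.1 times the lowest. Of 3454 genes with a value of at least 10 in some CCl4 library, 26 (0.753%) spread 10-fold or more there. The table was selected by a test of CCl4 against oil, which disfavours genes with a wide spread in CCl4. This share therefore does not describe liver genes at large. Gm1966 and Gvin1 were 2 of 3 genes of the table with no more than 3 reads in each of the 9 oil, oil + EVNorm and CCl4 + EVNorm libraries. The other was Gabra3, a subunit of the GABA-A receptor, named here after its values were seen. The values of the 2 members were also known, and a gene near 0 in oil could enter the table only through higher values in CCl4. This count is therefore a description that depends on the selection of the table. Gabra3 stood at 57, 46.2 and 50.3 in untreated mice, and at 91.5, 0.8 and 5.8 in CCl4, so that unlike Gm1966 it was read in all 3 untreated libraries and stood near 0 in CCl4 replicate 2.

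Whether vesicles or oil alone moved the 4 genes was asked in mice without CCl4, using limma on log2(normalised count + 1) with adjustment over all genes of the table. Comparing oil + EVNorm with oil, none of the 4 members was called, where 0.228% of the table was. The difference was -0.01 (SE 0.25, 95% interval -0.54 to 0.52) for Ifi47 and 0.04 (SE 0.12, -0.23 to 0.30) for Herc6, with adjusted p of 0.988 and 0.860. With the mean of oil replicates 2 and 3 taken as 1 library they were 0.02 and 0.03. Gvin1 and Gm1966 held 0 reads in oil and 1 and 0 reads in oil + EVNorm, under the floor in both groups. The unadjusted p of every member was above 0.05, and 0 of the 4 were called by edgeR or by DESeq2. The oil libraries had also entered the selection of the table.

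Neither oil + EVNorm nor untreated mice entered that selection. Between them none of the 4 was called by limma, against 31% of the table (10.4% higher and 20.5% lower). Ifi47 differed by -0.35 (SE 0.25, -0.88 to 0.18, adjusted p = 0.283) and Herc6 by 0.18 (SE 0.12, -0.08 to 0.45, adjusted p = 0.260). Ifi47 turned on 1 library: without untreated replicate 2 it was lower in oil + EVNorm by -0.72 on the log2 scale, with a limma adjusted p of 0.00694. Herc6 was called higher by edgeR with TMM scaling (0.33, adjusted p = 0.0389). Gm1966 had an unadjusted limma p of 0.0231 (adjusted p = 0.0656), the only 1 of the 4 under 0.05, and was called lower by DESeq2 (adjusted p = 0.0128). Its 58 untreated reads against 0 made it at least 19.9-fold higher in untreated mice, though untreated replicate 1 also held 0 reads. Untreated replicate 2 held 51 of the 58, and without it the bound for Gm1966 was 3.94-fold. For Gvin1, 17 reads in untreated replicate 2 against 1 in oil + EVNorm gave a ratio of 17.5 with an exact counting interval of 2.74 to 732, from a single untreated library.

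Oil against untreated gave nearly the same values, as it shares the untreated mice. No member was called, where 0.911% of the table was. The difference was -0.34 (SE 0.25, -0.87 to 0.18, limma adjusted p = 0.515) for Ifi47 and 0.15 (SE 0.12, -0.12 to 0.41, adjusted p = 0.571) for Herc6, or -0.37 and 0.16 with oil replicates 2 and 3 as 1 library. At an unadjusted p under 0.05 the count was 1 of 4, Gm1966, and by adjusted p edgeR and DESeq2 called 0. Without untreated replicate 2, Ifi47 passed the threshold here too (-0.72, limma adjusted p = 0.0290). The 58 untreated reads of Gm1966 against 0 in oil put it at least 19.6-fold higher in untreated mice, or at least 3.89-fold without untreated replicate 2. Without any 1 oil or oil + EVNorm library, these bounds of Gm1966 were 12.2-fold to 13.9-fold.

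In mice that all received vesicles, CCl4 + EVNorm was set against oil + EVNorm, 2 groups that did not select the table, although the members were chosen with the CCl4 + EVNorm values known. Limma, edgeR and DESeq2 each called 0 of the 4, with 0 at an unadjusted p under 0.05 by any of them, where limma called 49.6% of the table (20.5% higher and 29.1% lower). Genes chosen with those values in view may lie near oil + EVNorm through that choice. The count of 0 beside this share therefore says nothing about the members. The difference was -0.19 for Ifi47 (SE 0.25, -0.71 to 0.34, adjusted p = 0.508) and 0.07 for Herc6 (SE 0.12, -0.20 to 0.33, adjusted p = 0.624). These intervals do not exclude changes up to 0.71 downward for Ifi47. The sign for Ifi47 turned to 0.09 after quantile normalisation, and that of Herc6 to -0.004 without oil + EVNorm replicate 3. Gm1966 held 6 reads against 0, after scaling 1.48 times the floor of 3 reads, or 0.906 times without oil + EVNorm replicate 2. Without CCl4 + EVNorm replicate 1 it held 3 reads, at the floor. These values leave out counting error in the reads of Gm1966 and do not exclude equal levels. Gvin1 held 4 against 1, a ratio of 2.96 with an exact counting interval of 0.293 to 146.

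**Figure D3:**
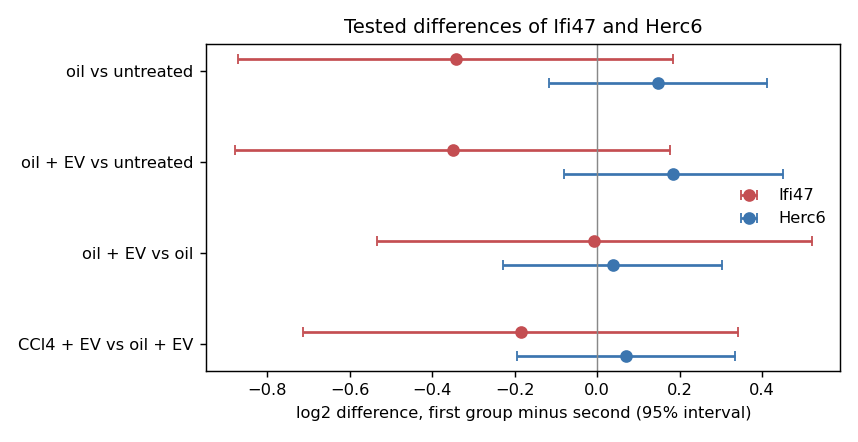
Log2 differences (horizontal axis, first group minus second) of Ifi47 and Herc6 in the 4 tested comparisons, with points for the limma estimates and bars for 95% intervals. All 8 intervals include 0, and those of Ifi47 (SE 0.25) are about as wide for each comparison, as are those of Herc6 (SE 0.12).

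Other interferon-linked genes of the table were read beside the members, from 5 lists drawn up with earlier results of these data known. Of 35 interferon-inducible GTPases, 10 were in the table, 7 of them besides Ifi47, Gvin1 and Gm1966. In CCl4 + EVNorm against oil + EVNorm, 0 of the 7 rose and 2 fell by limma, a share near the 29.1% of the table that fell. Gbp11, a guanylate-binding protein, fell by 0.85 on the log2 scale (SE 0.34, adjusted p = 0.0499), and Gm4951, an immunity-related GTPase, fell by 0.49 (SE 0.16, adjusted p = 0.0212). Their count was 0 to 3 when each replicate was left out in turn, with 0 calls without oil + EVNorm replicate 1 or CCl4 + EVNorm replicate 3 and 3 without oil + EVNorm replicate 3, and 1 by edgeR and after quantile normalisation. The median of the 7 was -0.25, beside -0.12 over all genes. None of the 7 was called between oil + EVNorm and untreated mice, though 2 had an unadjusted p under 0.05. In that comparison edgeR called 0 and DESeq2 called 1 lower, and limma called 2 lower without untreated replicate 2 and 2 lower without oil + EVNorm replicate 1.

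Described without a test, 5 of these 7 GTPases were lower in CCl4 than in oil, as Ifi47 was, with a median of -0.76. Igtp stood at 1491 in oil, 854 in CCl4 and 1082 in CCl4 + EVNorm (means of 3 libraries), and Gbp10 at 401.3, 237 and 406.8. The 2 that were higher in CCl4 were Irgq, a relative without a working GTPase site, and 9930111J21Rik2, an immunity-related GTPase of the chromosome 11 cluster that starts 25.3 kb from Ifi47. The latter stood at 72.4 in oil, 153.8 in CCl4 and 119.3 in CCl4 + EVNorm, opposite to Ifi47 at each step. Between CCl4 + EVNorm and CCl4, 6 of the 7 differences were above 0, where 40.1% of the table was, with a median of 0.11. None of the 7 passed the limma threshold, against 5.67% of the table, and 1 had an unadjusted p under 0.05. The CCl4 libraries had also entered the selection of the table, which limits every test and direction count of this comparison. With the replicate number as a block, which pairs these 2 groups, 2 of the 7 had an unadjusted p under 0.05 and none was called. edgeR and DESeq2 also called 0, whereas 1 was called higher after quantile normalisation.

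Herc6 differed in direction from the other genes of its list that were in the table, described without a test. Of 10 genes of ISG15 conjugation and the HERC family, 5 were in the table. The others were Herc1 and Herc3, other HERC proteins, Uba7, the activating enzyme for ISG15, and Usp18, the protease that removes ISG15. All 4 were higher in CCl4 than in oil, with a median of 0.53, where Herc6 was lower. Of the table, which was selected on this comparison, 48.7% had a difference above 0. Usp18 stood at 127 in untreated mice, 91.8 in oil, 61.8 in oil + EVNorm, 162.9 in CCl4 and 201.6 in CCl4 + EVNorm. In CCl4 + EVNorm against oil + EVNorm, Usp18 rose by 1.73 on the log2 scale (SE 0.26, limma adjusted p = 0.000398), as 1 of the 4, and 0 fell. Among all genes 20.5% rose. edgeR called 3 of the 4 higher there and DESeq2 2, and limma called 3 after quantile normalisation or without oil + EVNorm replicate 3 and 2 with the replicate block. Between untreated mice and oil + EVNorm, Usp18 fell by 1.06 (SE 0.26, adjusted p = 0.0109) and Herc3 rose by 0.69 (SE 0.22, adjusted p = 0.0294). Neither direction held a call with the replicate block or without untreated replicate 1, and the list gave 0 rises after quantile normalisation or without oil + EVNorm replicate 3. Between CCl4 + EVNorm and CCl4 all 4 differences were above 0, where 40.1% of the table was. None of the 4 was called by limma, edgeR or DESeq2, with 0 at an unadjusted p under 0.05. Herc6 and these 4 genes all had a higher mean in CCl4 + EVNorm than in CCl4.

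Of 95 other interferon-stimulated genes, 15 were in the table. In CCl4 + EVNorm against oil + EVNorm 8 rose and 1 fell by limma, where 20.5% of the table rose and 29.1% fell, with a median of 0.92 beside -0.12 over all genes. In CCl4 against oil, which selected the table, 11 of the 15 were already higher and 4 lower. The shares of the whole table are therefore not a like background for these counts, which may repeat the direction of that selection. Ifi27l2b, an interferon alpha-inducible protein of the ISG12 family, rose by 2.65 on the log2 scale (SE 0.47, adjusted p = 0.00120). Slfn4, a schlafen protein of myeloid cells, rose by 2.09 (SE 0.55, adjusted p = 0.00977). Oas1g, a gene of the oligoadenylate synthetase family, rose by 1.15 (SE 0.39, adjusted p = 0.0271), and Nmi, a STAT-interacting protein, fell by 0.36 (SE 0.14, adjusted p = 0.0474). The number that rose was 2 to 7 with each replicate left out, lowest without CCl4 + EVNorm replicate 3, and 4 after quantile normalisation. The number that fell was 0 with the replicate block, by edgeR and with any 1 library left out other than oil + EVNorm replicate 3, without which it was 3. Lyz2 and Ccr2 summed to 912.7 to 1405.4 in oil + EVNorm and 1411.7 to 2067 in CCl4 + EVNorm, and the part of macrophages in these rises was not tested. Of the 15, oil + EVNorm against untreated mice gave 1 call, Ifi27l2b, which rose by 1.39 (SE 0.47, adjusted p = 0.0357). None of the 15 was called higher there with the replicate block, by edgeR or DESeq2, after quantile normalisation, or without untreated replicate 2 or oil + EVNorm replicate 2. Without untreated replicate 2 or oil + EVNorm replicate 1, 1 was called lower. In CCl4 + EVNorm against CCl4, limma, edgeR and DESeq2 called 0 of the 15, and limma gave 0 at an unadjusted p under 0.05.

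Of 33 genes of antigen processing and MHC, 8 were in the table, and 7 fell in CCl4 + EVNorm against oil + EVNorm by limma, where 29.1% of the table fell. In CCl4 against oil, the selecting comparison, 7 of the 8 were already lower and 1 higher. That share is therefore not a like background, and the count may repeat the direction of the selection. H2-T23, a non-classical class I gene, fell by 0.85 on the log2 scale (SE 0.32, adjusted p = 0.0381), and H2-Q10, a secreted class I gene of liver, fell by 0.74 (SE 0.18, adjusted p = 0.00782). Psmb9, an immunoproteasome subunit, fell by 0.52 (SE 0.20, adjusted p = 0.0434), while H2-D1, a classical class I gene, rose by 0.52 (SE 0.17, adjusted p = 0.0237). These falls depended on the scaling, since 0 were called after quantile normalisation and 1 by edgeR with TMM. With each replicate left out 1 to 7 were called, with 1 without oil + EVNorm replicate 1 or 2 or CCl4 + EVNorm replicate 1, and 2 without CCl4 + EVNorm replicate 2 or 3. The 1 rise of the list was not called without oil + EVNorm replicate 1 or 3 or CCl4 + EVNorm replicate 3. In the same comparison 3 of the 11 cell type markers measured here fell: Cyp2e1 by 0.60 (SE 0.21), Cd4 by 0.88 (SE 0.29) and Ighm by 1.68 (SE 0.46), with limma adjusted p of 0.0304, 0.0240 and 0.0119, and their part in these falls was not tested. In oil + EVNorm against untreated mice limma called 0 of the 8, with 1 at an unadjusted p under 0.05. There 1 was called lower by DESeq2 and without untreated replicate 2 or oil + EVNorm replicate 2, edgeR called 0, and 2 were called higher after quantile normalisation. Of 39 receptors and signalling genes 2 were in the table. In CCl4 + EVNorm against oil + EVNorm, Mavs, the mitochondrial adaptor of RNA sensing, fell by 0.50 (SE 0.11, limma adjusted p = 0.00370). Tyk2, a receptor-associated kinase, differed there by 0.16 (SE 0.13, limma adjusted p = 0.273). After quantile normalisation 0 of the 2 were called lower and 1 higher.

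**Figure D4:**
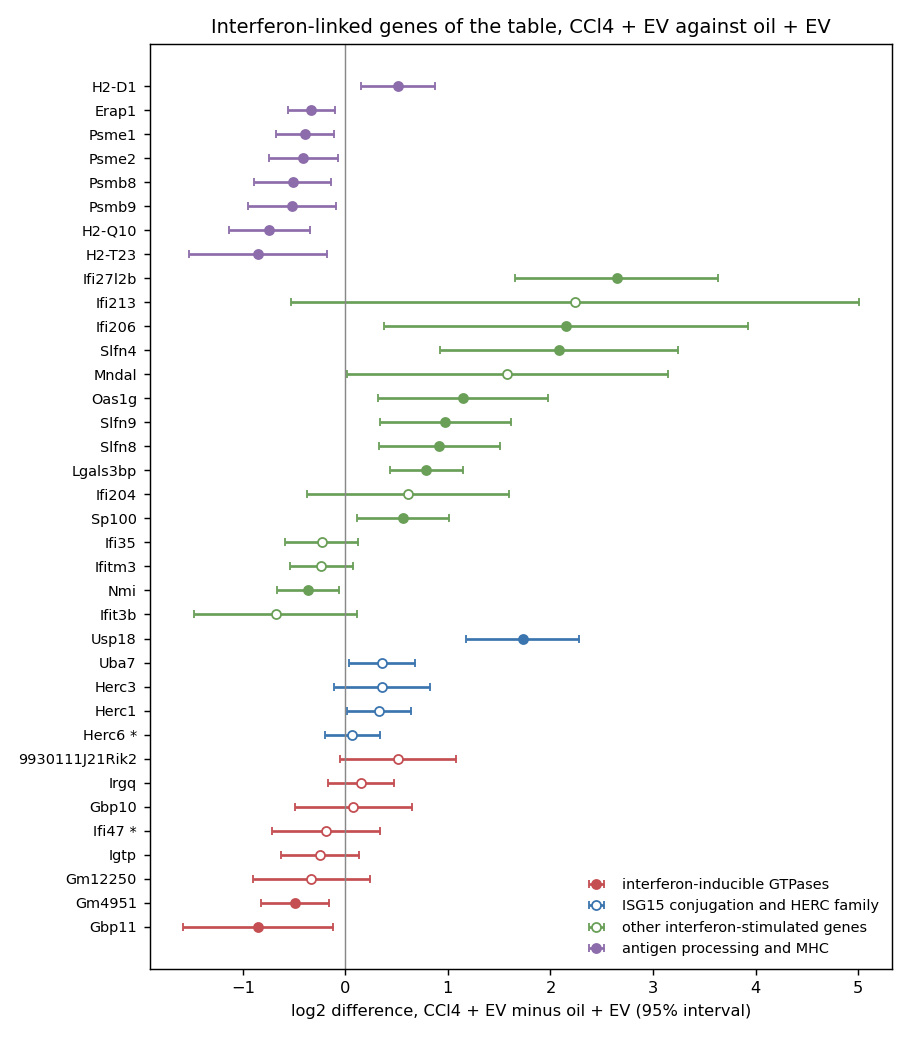
Log2 difference between CCl4 + EVNorm and oil + EVNorm (horizontal axis) with 95% intervals for genes of 4 interferon-linked lists, coloured by list. Filled points passed the limma threshold, open points did not, and asterisks mark Ifi47 (-0.19) and Herc6 (0.07), which lie among the open points, while Usp18 (1.73) and Ifi27l2b (2.65) lie far to the right.

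The genes most like each member were taken by Pearson's r of log2(normalised count + 1) over the 15 libraries, as a description. All r over libraries share the groups, the same libraries and their scaling. For Ifi47 they were Lsm6 (r = 0.93), a subunit of the spliceosomal U6 particle, Gm30262 (0.92) and Snap47 (0.89), a SNARE protein. Lsm6 stood at means of 659 in untreated mice, 556 in oil, 493 in oil + EVNorm, 367 in CCl4 and 488 in CCl4 + EVNorm. For Herc6 the likeness was weaker, with Mb21d2 (0.79), Lgr4 (0.77), a receptor for R-spondins, and Camk2n1 (0.76), an inhibitor of CaM kinase II. Mb21d2 had its lowest mean in CCl4 (432) and 640 in CCl4 + EVNorm. None of these 6 genes was on an interferon list. Ifi47 and Herc6 had an r of 0.68 with each other.

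For Gvin1 and Gm1966 the most alike gene was the other member of the pair (r = 0.92). Next for Gvin1 came Itga1 (0.81), an integrin subunit that binds collagen and laminin, and Oip5 (0.80), a centromere protein. Oip5 (0.83) and Lamb1 (0.81), a laminin chain, came next for Gm1966. Oip5 stood at a mean of 31.5 in CCl4 and 4.03 in oil. Of the other genes of the table starting within 1 Mb, Rack1 and Rnf130 near Ifi47 and Pyurf near Herc6 had lower means in CCl4 + EVNorm than in CCl4. Pyurf, 111 kb from Herc6, stood at 323.3 in CCl4 and 306.9 in CCl4 + EVNorm. Ppfibp2, 991 kb from Gm1966, stood at 668.8 in oil, 895.9 in CCl4 and 1013 in CCl4 + EVNorm.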

How the data were processed

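RNA of whole liver was sequenced with a stranded kit as paired reads. Per the study's methods and the submitters' processing notes, STAR 2.6.0c placed the reads on GRCm38.p3, and featureCounts counted them on Gencode M19. The strand and multiple-placement settings are not given in the sources used here. The deposited table holds, as a signal for each gene and library, counts that the authors divided by a size factor and rounded to 1 decimal. Further columns, deposited by the authors for their own comparison of CCl4 with oil (a log2 fold change, a score that is the Wald statistic, and p-values), were not used. It is limited to 3511 genes selected by that comparison.

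Whole reads were recovered from the steps of the values, with 100% whole within 0.05 in every library. The test was limma 3.58.1 in R 4.3.3 on log2(value + 1) of all 15 libraries, by group, with a variance trend, two-sided, Benjamini-Hochberg adjusted over the 3511 genes, threshold 0.05, with no filter on low values. Fold changes on this scale understate those of low genes. Alternatives used edgeR 4.0.16 and DESeq2 1.42.0 on the recovered reads, other pseudocounts (0.5 and 5), a minimum mean of 10, quantile normalisation, a replicate block and each replicate left out. The test of non-member genes in CCl4 + EVNorm against CCl4 and the alternatives for gene list counts and for fold bounds were added after seeing the data. The code was tested on simulated data.

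The members and gene lists were chosen with earlier results of these data known. Named are the 4 members, the 3 most alike genes of each, table genes starting within 1 Mb, and per list and comparison up to 3 called genes each way with a mean of at least 10 in the higher group. Other table genes are named as illustrations after their values were seen. Same-numbered libraries deviated together in CCl4 + EVNorm and CCl4 (r = 0.23, 0.18 and 0.17 across genes), with r over 0.1 for every number. They met the cut for pairing used here, although the labels give replicate numbers and state no pairing. The main fit was by group, and the replicate block was an alternative. In each other comparison at least 1 number had an r under 0.1 (oil against untreated: 0.12, 0.048 and 0.16). Yet in oil against untreated, as in CCl4 + EVNorm against CCl4, each library correlated best with the same-numbered library of the other group. Positions are from GENCODE vM21 (GRCm38), and transcripts were aligned with BLAST 2.17.0. Each group has 3 libraries, which limits the precision of every mean.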

Additional observations from a re-analysis of the deposited data

How the results depend on the processing

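No setting changed which side of the threshold a member lay on except those named here. Without single replicates the log2 difference in oil + EVNorm against untreated ranged from -0.72 to -0.16 for Ifi47, from -1.68 to 0.38 for Gvin1 and from -4.56 to -1.74 for Gm1966, and for Ifi47 in oil against untreated from -0.72 to -0.15. Ifi47 was called without untreated replicate 2 in both comparisons, and Gm1966 without untreated replicate 1 in the first (limma adjusted p = 0.0226). In that comparison Herc6 was called by edgeR with TMM (0.33), and Gm1966 by edgeR with the authors' size factors (-7.40, adjusted p = 0.0495) and DESeq2 (-6.61). In CCl4 + EVNorm against oil + EVNorm, quantile normalisation gave 0.088 for Ifi47 and -0.41 for Gvin1, and Herc6 ranged from -0.0042 to 0.15 without single replicates. In oil + EVNorm against oil, Ifi47 was 0.10 by edgeR with TMM, 0.011 by edgeR with the authors' size factors, 0.011 by DESeq2, 0.12 after quantile normalisation and 0.0197 with oil replicates 2 and 3 as 1, and ranged from -0.13 to 0.16 without single replicates, as Herc6 did from -0.046 to 0.11. Untested differences that moved by more than 1 SD between replicates were those of CCl4 against oil for Ifi47 (-0.84) and Herc6 (-0.29) after quantile normalisation and for Gm1966 (3.90) with a pseudocount of 5, and that of Herc6 in CCl4 + EVNorm against CCl4 (0.65 after quantile normalisation). With a pseudocount of 5, Gvin1 went from 4.56 to 2.82 in the first comparison, and in the second Gvin1 went from -3.67 to -2.55 and Gm1966 from -4.67 to -3.50, within their wider SD.

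The number of genes called in oil + EVNorm against untreated was 1087, or 22 with only the 2 groups fitted, 61 with the replicate block, 503 after quantile normalisation and 395 (without untreated replicate 1) to 1369 (without untreated replicate 2). In CCl4 + EVNorm against oil + EVNorm it was 1740, or 1146 after quantile normalisation and 918 (without CCl4 + EVNorm replicate 3) to 1878 (without oil + EVNorm replicate 3). In oil + EVNorm against oil it was 8, or 2 with a pseudocount of 5, 5 with only the 2 groups, 0 with the replicate block, 0 and 1 by edgeR with TMM and size factors, 103 by DESeq2, 0 after quantile normalisation, 0 with oil replicates 2 and 3 as 1, and 0 to 20 (without oil + EVNorm replicate 1). In oil against untreated it was 32, or 17 with only the 2 groups, 19 with the replicate block, 90 by DESeq2, 21 after quantile normalisation, 19 with oil replicates 2 and 3 as 1, and 20 (without untreated replicate 3) to 334 (without untreated replicate 2). The cause of these shifts was not tested. The replicate block changed the call of no member. Few reads limit Gvin1 and Gm1966, and reads shared with Gm4070 limit Gvin1.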
